A study of Homo sapiens with 16 samples.

Results

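The genes described here are 10 human genes of double-stranded RNA sensing: the receptors DDX58 (RIG-I), IFIH1 (MDA5), DHX58 (LGP2), TLR3 and ZBP1, the effectors EIF2AK2 (PKR) and ADAR, the adaptors MAVS and TICAM1 (TRIF), and the kinase TBK1. The rule names them by symbol and sets no threshold on a measured value, but the list was drawn up with earlier results of these data known. All 10 were found among the 20626 genes of the U343 tables and 9 among the 20314 genes of the U251 tables, and ADAR was not analysed here in U251. The data came from U251 and U343, established human glioblastoma cell lines, transfected at 25 nM with a mimic of the microRNA miR-137 or with a control mimic, both delivered with the same lipid reagent, and collected after 48 h. In either line, total RNA (RNASeq) and RNA immunoprecipitated with antibodies against the poly(A) binding protein PABP (RIPSeq) were sequenced in 2 control and 2 miR-137 libraries, 16 libraries in all. The study asked which mRNAs change in level or in association with PABP when miR-137 is raised. No source used here says whether the 2 libraries of a group came from separate cultures, so p-values measure only the spread between these libraries, which may be technical, and no untransfected library was analysed here, so every value is relative to cells that also received a small RNA duplex and lipid.

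Cells detect double-stranded RNA, which viruses make and which synthetic duplexes can imitate, with several receptors. The helicases RIG-I and MDA5 bind it in the cytosol and signal through MAVS on mitochondria, with LGP2 as a regulator that lacks the signalling domains, while TLR3 binds it in endosomes and signals through TRIF. Both routes reach TBK1, which phosphorylates IRF3 and switches on interferon genes, and many of the sensors are themselves interferon-stimulated genes. PKR halts translation when it binds double-stranded RNA, ADAR edits adenosines in such RNA, and ZBP1 binds Z-form nucleic acid and can start cell death.

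The mature miR-137 sequence is given because the mimic delivers it as one strand of a short duplex. Capitals mark the seed, bases 2 to 8, as recorded by RefSeq on GRCh38.p14 at chr1:98046091-98046113, minus strand.

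hsa-miR-137-3p: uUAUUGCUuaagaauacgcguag

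Levels are given as CPM, the reads of a gene per 1000000 reads of the library, with library totals scaled by edgeR's TMM factors, and fold changes on the log2 scale with their standard error (SE) from edgeR's quasi-likelihood test. A gene is said to have risen or fallen only where the Benjamini-Hochberg adjusted p over all genes tested was under 0.05. Libraries held 10156675 to 18224061 counted reads in U251 RNASeq, 22359794 to 30731476 in U251 RIPSeq, and 37736206 to 45134766 in U343. CDK6, a kinase of the cell cycle that the study treated as a miR-137 target, was lower in both miR-137 libraries than in both controls in all 4 experiments. In U251 RNASeq its level was 1540 and 1600 CPM in the controls and 149 and 122 CPM with miR-137, and in U343 RNASeq it was 545 and 643 CPM against 81.3 and 91.6 CPM. Summed over 5 glioma and astroglia markers, which VIM led, the level lay between 3820 and 14300 CPM. In U251 RNASeq all 5 of these markers fell, among them GFAP (log2 fold change -3.18, SE 0.18, edgeR adjusted p = 1.33e-08), and in U251 RIPSeq none of the 5 passed. In U343 NES, an intermediate filament of neural progenitors, rose in RNASeq (1.58, SE 0.12) and in RIPSeq (1.37, SE 0.11). In U343 RIPSeq FABP7 also rose (0.46, SE 0.11), while GFAP (-0.79, SE 0.22), the endothelial CDH5 (-1.56, SE 0.22) and the epithelial KRT5 (-0.45, SE 0.14) fell. Leukocytes and microglia are cells with high sensor levels, and their 6 markers summed to 0.713 to 5.1 CPM, with 0 to 2 of them at 0 reads in both libraries of a group. In U251 RNASeq, where the sensors rose, this sum was 2.25 and 0.713 CPM in the controls and 4.29 and 4.23 CPM with miR-137, and both markers tested rose, CD14 (log2 fold change 1.84, SE 0.61, edgeR adjusted p = 0.02) from 10 and 1 to 15 and 13 reads and CSF1R (1.25, SE 0.40, edgeR adjusted p = 0.0159) from 19 and 9 to 20 and 27 reads. Both passed the filter only with their miR-137 libraries, so neither rise is independent support. In the other experiments none of the leukocyte and microglia markers passed. The 2 endothelial markers summed to 0.274 to 1.83 CPM in U251 and 9.12 to 31.6 CPM in U343. The 2 epithelial markers stayed at or under 0.805 CPM in U251 but summed to 328 to 1420 CPM in U343, where KRT5, a keratin of epithelium, led. The part of these markers in the results was not tested.

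Libraries of 2 groups stood apart from their partners. Between the U251 RIPSeq controls the median absolute log2 ratio over 12216 genes was 0.67, against 0.06 between the miR-137 libraries of that experiment, and among the sensor genes the ratio of control 2 to control 1 ran from -1.87 for ZBP1 to 1.68 for EIF2AK2. In U343 RNASeq the miR-137 libraries differed in the sensor genes themselves, with 8 of 10 more than 2-fold higher in replicate 2 than in replicate 1, against 518 of the 13196 genes at 1 CPM or more (3.925%). The miR-137 changes of the members in these 2 experiments are given with and without these libraries. A fit that leaves 1 library in a group takes its spread only from groups that still hold 2. Counts of called genes from such fits ignore the difference between the libraries of the reduced group.

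**Figure D1:**
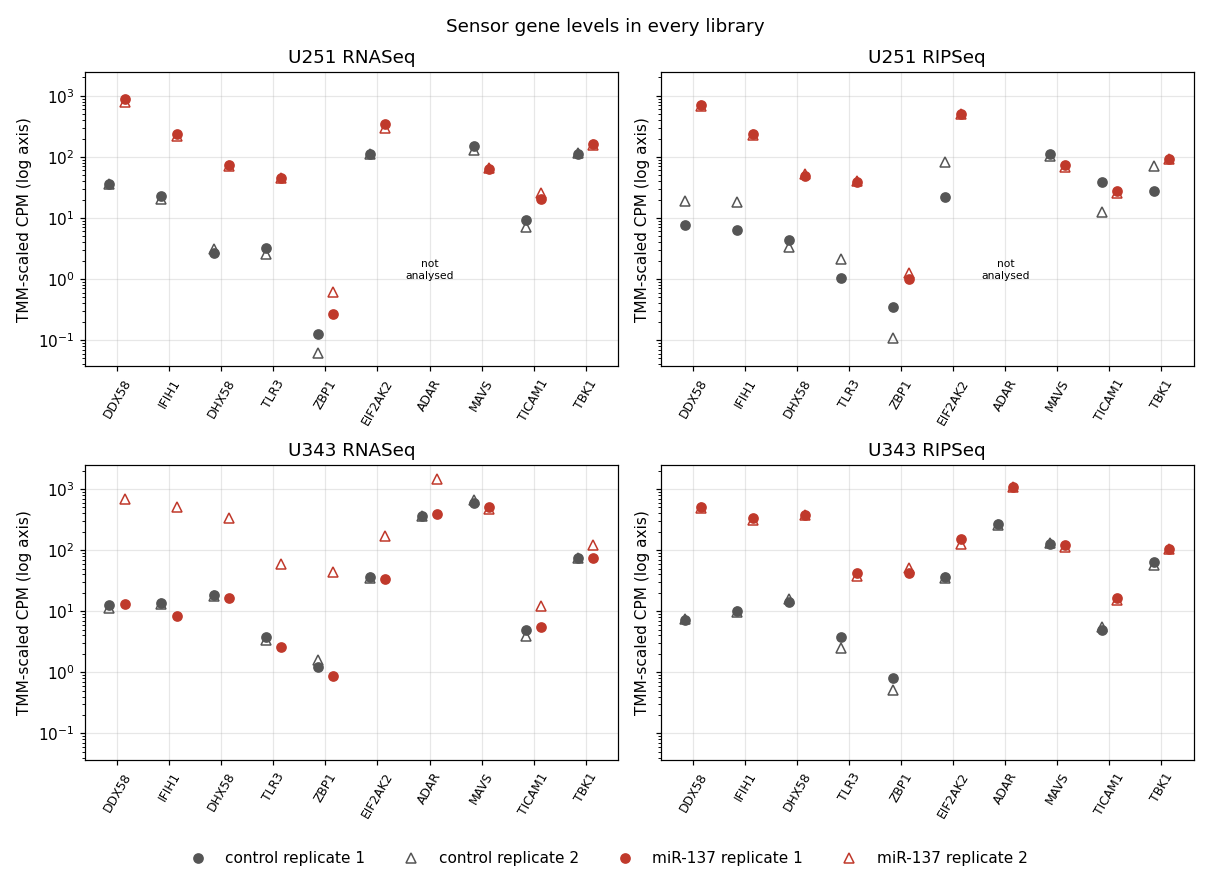
TMM-scaled CPM (log axis) of each gene in every library, 1 panel per experiment, with grey for control and red for miR-137, circles for replicate 1 and triangles for replicate 2. In 3 panels DDX58, IFIH1, DHX58 and TLR3 lie far above the controls in both miR-137 libraries, and in U343 RNASeq only in replicate 2 (DDX58 at 697 CPM, against 13.3 CPM in replicate 1).

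With miR-137, the sensors rose in U251 total RNA and in U343 PABP-bound RNA. In U251 RNASeq, 8 members passed the filter on low counts, of which 7 rose and 1, MAVS, fell, where 28.7% of all genes tested rose and 29.0% fell. With 1 model over the 8 U251 libraries EIF2AK2, TICAM1 and TBK1 no longer passed there (edgeR adjusted p = 0.0587, 0.0619 and 0.354). In U343 RIPSeq, 9 of 10 rose and none fell, where 28.5% of all genes rose and 27.8% fell. In U251 RIPSeq, 3 of 9 rose (DDX58, DHX58 and TLR3), where 0.944% of all genes rose and 0.263% fell. Without a filter on low counts DDX58 and TLR3 did not pass there (edgeR adjusted p = 0.0771 for both). Without control replicate 1 of that experiment 8 members rose and 1 fell, against 32.8% and 35.3% of all genes, and without control replicate 2 it was 7 and 2, against 40.2% and 34.2%. In U343 RNASeq no member passed the test, where 8.31% of all genes rose and 11.7% fell by edgeR; at an unadjusted p under 0.05 edgeR gave 2661 higher and 2890 lower genes there, and DESeq2 called DDX58 higher and MAVS lower, where it called 13.2% of all genes higher and 15.8% lower. The median log2 fold change of the tested members was 2.46, 3.29, 2.31 and 2.86 in U251 RNASeq, U251 RIPSeq, U343 RNASeq and U343 RIPSeq, beside 0.02, -0.02, 0.02 and 0 over all genes.

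**Figure D2:**
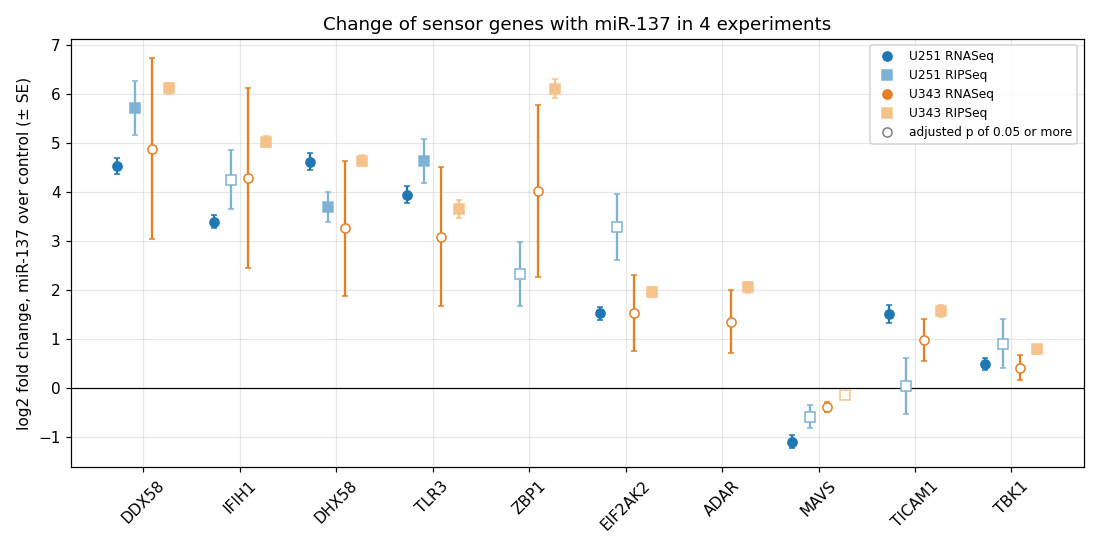
Log2 fold change of miR-137 over control (vertical axis) for each gene, with bars for 1 SE, blue for U251, orange for U343, circles for RNASeq and squares for RIPSeq. Filled points have an edgeR adjusted p under 0.05. The receptors lie between 2.33 and 6.12, and MAVS lies below 0 in all 4 experiments.

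DDX58, which encodes RIG-I, the receptor of short double-stranded RNA with 5′ phosphates, lies in hg18 on chr9:32445300-32516322, minus strand. In U251 RNASeq it measured 35.5 and 35.8 CPM in the controls and 884 and 781 CPM with miR-137, groups that did not overlap. Its log2 fold change there was 4.54 (SE 0.16, edgeR adjusted p = 8.82e-11), or 23.3-fold. U251 RIPSeq gave 7.64 and 18.6 CPM against 704 and 676 CPM, a log2 fold change of 5.71 (SE 0.55, edgeR adjusted p = 0.034). The controls of that experiment differed from each other 2.43-fold, a spread small beside the gap to the miR-137 libraries, and the change was 5.21 without control 1 and 6.59 without control 2. U343 RIPSeq gave 7.09 and 7.45 CPM against 518 and 494 CPM, and the gene rose by 6.12 (SE 0.11, edgeR adjusted p = 1.41e-07). U343 RNASeq gave 12.7 and 11.3 CPM in the controls, 13.3 CPM in miR-137 replicate 1 and 697 CPM in replicate 2. The 2 miR-137 libraries therefore lay 1 near the controls and 1 far above, and the log2 fold change of 4.89 (SE 1.84, edgeR adjusted p = 0.137) did not pass.

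IFIH1 encodes MDA5, which binds long double-stranded RNA, and lies on chr2:162831835-162883285 (hg18, minus strand). Total RNA of U251 held 22.7 and 20.8 CPM in controls and 241 and 219 CPM with miR-137, and the gene rose 10.6-fold (log2 fold change 3.40, SE 0.14, edgeR adjusted p = 5.06e-10). PABP-bound RNA of U343 held 10.1 and 9.64 CPM against 334 and 311 CPM, a log2 rise of 5.03 (SE 0.11, edgeR adjusted p = 1.61e-07). In both of these experiments replicates lay close together and the groups were far apart. PABP-bound RNA of U251 held 6.35 and 18.1 CPM in controls against 234 and 232 CPM. Every miR-137 value there was above every control value, but the change of 4.25 (SE 0.60) had an edgeR adjusted p = 0.0617. Without control replicate 1 it was 3.68 and without control replicate 2 it was 5.29. In total RNA of U343 the controls were 13.4 and 13.3 CPM, miR-137 replicate 1 was lower at 8.21 CPM and replicate 2 was higher at 516 CPM.

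DHX58 encodes LGP2, the RIG-I-like receptor without signalling domains, on chr17:37506950-37518277 (hg18, minus strand). U251 RNASeq gave 2.68 and 3.12 CPM in controls and 72.3 and 71.4 CPM with miR-137, and U251 RIPSeq gave 4.42 and 3.40 CPM against 49.2 and 52.8 CPM. It rose in both, by 4.62 (SE 0.17, edgeR adjusted p = 1.42e-10) and 3.70 (SE 0.30, edgeR adjusted p = 0.0256), the latter 3.90 without control 1 and 3.62 without control 2. Of the 3 members called in U251 RIPSeq it had the closest controls, 1.3-fold apart. In U343 RIPSeq the values were 14.1 and 15.9 CPM against 372 and 377 CPM, 25.0-fold higher. U343 RNASeq gave 18.6 and 17.7 CPM in controls, 16.5 CPM in miR-137 replicate 1 and 331 CPM in replicate 2, so that only replicate 2 stood apart.

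TLR3, the endosomal receptor, lies on chr4:187227303-187243246 (hg18, plus strand). Its level in U251 RNASeq was 3.19 and 2.57 CPM in controls and 44.6 and 44.9 CPM with miR-137 (log2 fold change 3.95, SE 0.18, edgeR adjusted p = 1.11e-09). U251 RIPSeq went from 1.03 and 2.15 CPM to 39.1 and 40.4 CPM, with 84 control reads and 2118 miR-137 reads in all, a rise of 4.63 (SE 0.45, edgeR adjusted p = 0.034), or 4.20 without control 1 and 5.35 without control 2. In U343 RIPSeq the gene measured 3.84 and 2.51 CPM against 42.5 and 38.3 CPM and rose by 3.66 (SE 0.18, edgeR adjusted p = 4.98e-06). These 3 experiments gave 12.7- to 24.8-fold higher levels with miR-137. In U343 RNASeq the controls were 3.81 and 3.35 CPM, miR-137 replicate 1 was 2.56 CPM and replicate 2 was 58.7 CPM.

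TICAM1 encodes TRIF, the adaptor of TLR3, on chr19:4766939-4782737 (hg18, minus strand), and its changes were smaller. In U251 RNASeq it rose from 9.13 and 7.16 CPM to 20.3 and 25.9 CPM, or 2.84-fold (log2 fold change 1.51, SE 0.18, edgeR adjusted p = 1.42e-05). In U343 RIPSeq it rose from 4.99 and 5.51 CPM to 16.2 and 15.1 CPM, or 2.98-fold (log2 fold change 1.58, SE 0.12, edgeR adjusted p = 3.22e-05). U251 RIPSeq gave 38.6 and 12.5 CPM in the controls and 27.4 and 25.6 CPM with miR-137. The miR-137 values lay between the controls, which were 3.09-fold apart, and the change was 0.05 (SE 0.57, 95% interval -1.44 to 1.55). It had opposite signs without control 1 (1.08) and without control 2 (-0.45). U343 RNASeq gave 4.87 and 3.96 CPM in controls, 5.41 CPM in miR-137 replicate 1 and 12.1 CPM in replicate 2.

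ZBP1, the sensor of Z-form nucleic acid, lies on chr20:55612308-55629038 (hg18, minus strand) and was the member with the fewest reads. In U251 RNASeq it had 2 and 1 reads in the controls and 3 and 7 with miR-137, and it did not pass the filter. The ratio of summed reads was 4.77 with a Clopper-Pearson 95% interval of 1.23 to 27, which covers counting error only. In U251 RIPSeq the level was 0.343 and 0.107 CPM against 0.995 and 1.25 CPM (11 against 60 reads), and the log2 fold change of 2.33 (SE 0.66) had an edgeR adjusted p = 0.167. The change was 3.33 without control 1 and 1.79 without control 2. With 8 and 3 control reads against 26 and 34, ZBP1 passed the filter there only through the miR-137 libraries. Its direction is therefore no independent support. In U343 RIPSeq 0.798 and 0.516 CPM in controls stood against 42.0 and 50.1 CPM, 69.1-fold higher (log2 fold change 6.11, SE 0.19, edgeR adjusted p = 6.44e-07), from 57 control reads and 3599 miR-137 reads. U343 RNASeq gave 1.21 and 1.56 CPM in controls, 0.878 CPM in miR-137 replicate 1 and 44.0 CPM in replicate 2. ZBP1 thus exceeded 2 CPM only in the U343 miR-137 libraries other than RNASeq replicate 1.

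EIF2AK2 encodes PKR, the kinase that phosphorylates eIF2 alpha, on chr2:37187203-37237694 (hg18, minus strand). In U251 RNASeq it had 1739 and 1793 reads in the controls and 3804 and 3318 with miR-137, in libraries of fewer reads, and rose from 110 ± 0.996 to 319 ± 34.5 CPM (mean ± SD, n = 2), or 2.89-fold (log2 fold change 1.53, SE 0.13, edgeR adjusted p = 7.53e-07). In U343 RIPSeq 35.8 and 35.4 CPM rose to 151 and 127 CPM, or 3.91-fold (log2 fold change 1.97, SE 0.10, edgeR adjusted p = 6.67e-06). Both rises were several-fold smaller than those of the RIG-I-like receptors in the same libraries. U251 RIPSeq held 22.3 and 81.7 CPM in its controls and 511 and 502 CPM with miR-137, and with controls 3.66-fold apart the change of 3.29 (SE 0.68, edgeR adjusted p = 0.111) did not pass. It was 2.63 without control 1 and 4.60 without control 2. U343 RNASeq gave 36.5 and 34.7 CPM in controls, 33.2 CPM in miR-137 replicate 1 and 172 CPM in replicate 2.

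ADAR, the adenosine deaminase whose longer isoform is made from an interferon-driven promoter, lies on chr1:152821158-152867061 (hg18, minus strand) and was measured in U343 only. The tables count all isoforms of a gene together, so the 2 forms are not separated. In RIPSeq it rose from 267 and 262 CPM to 1100 and 1100 CPM (log2 fold change 2.06, SE 0.11, edgeR adjusted p = 6.41e-06). In RNASeq the controls were 365 and 364 CPM, miR-137 replicate 1 was 385 CPM and replicate 2 was 1490 CPM. Replicate 1 was 1.06-fold and replicate 2 4.09-fold the control mean.

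MAVS, the mitochondrial adaptor of RIG-I and MDA5, lies on chr20:3775449-3804762 (hg18, plus strand) and was the one member lower with miR-137 in every experiment. U251 RNASeq gave 151 and 128 CPM in controls and 64.3 and 67.0 CPM with miR-137, and the gene fell by 1.09 on the log2 scale (SE 0.13, edgeR adjusted p = 1.48e-05). This is 0.471 of the control level, with no overlap. U251 RIPSeq gave 110 and 105 CPM against 74.9 and 68.8 CPM (log2 fold change -0.58, SE 0.23, edgeR adjusted p = 0.264). The change was -0.55 without control 1 and -0.52 without control 2. U343 RNASeq gave 600 and 667 CPM against 501 and 464 CPM, with both miR-137 libraries below both controls (log2 fold change -0.39, SE 0.10, edgeR adjusted p = 0.0624). MAVS was the only member for which the 2 miR-137 libraries of U343 RNASeq lay on the same side and close together, at 0.79 and 0.73 of the control mean. In U343 RIPSeq the values were 126 and 129 CPM against 120 and 111 CPM, and the change of -0.14 (SE 0.08, 95% interval -0.34 to 0.06, edgeR adjusted p = 0.192) did not pass.

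TBK1, the kinase on which both routes converge, lies on chr12:63132204-63182158 (hg18, plus strand) and rose by less than 2-fold. U251 RNASeq gave 112 and 116 CPM against 162 and 158 CPM (1.41-fold, log2 fold change 0.49, SE 0.12, edgeR adjusted p = 0.00369). U343 RIPSeq gave 63.5 and 57.4 CPM against 106 and 103 CPM (1.73-fold, log2 fold change 0.79, SE 0.09, edgeR adjusted p = 0.000182). In U251 RIPSeq 27.2 and 70.8 CPM stood against 90.7 and 93.7 CPM, and the change of 0.91 (SE 0.50) had an edgeR adjusted p = 0.394. It was 0.38 without control 1 and 1.85 without control 2. The controls there were 2.6-fold apart, more than the distance from the higher control to either miR-137 library. U343 RNASeq gave 73.8 and 73.6 CPM in controls, 74.5 CPM in miR-137 replicate 1 and 122 CPM in replicate 2.

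Within U343 RNASeq the miR-137 libraries differed in each member other than MAVS, by more than 2-fold in 8 of 10. Relative to the control mean, replicate 1 lay between 0.61 for IFIH1 and 1.22 for TICAM1. Replicate 2 stood at 58.08 for DDX58, 38.51 for IFIH1, 31.88 for ZBP1, 18.19 for DHX58 and 16.4 for TLR3. For EIF2AK2, ADAR, TICAM1 and TBK1 it was 4.83, 4.09, 2.74 and 1.66, and for MAVS 0.73. In the RIPSeq libraries of the same line both replicates were high, for DDX58 71.25 and 67.95 times the control mean. Interferon-stimulated genes moved with the sensors: IFIT1 had 624 and 517 reads in the RNASeq controls, 410 in miR-137 replicate 1 and 76721 in replicate 2, and IFNB1, which encodes interferon beta, had 1, 1, 1 and 817. CDK6, in contrast, fell in both libraries (log2 fold change -2.78, SE 0.14, edgeR adjusted p = 0.00647). Without replicate 1, edgeR called 9 members higher and MAVS lower (-0.46, edgeR adjusted p = 0.022), where 19.3% of all genes rose and 20.3% fell, with the lone miR-137 library assumed to vary like the controls. The changes of DDX58, IFIH1, DHX58, TLR3 and ZBP1 were then 5.85, 5.26, 4.18, 4.02 and 4.99, and those of EIF2AK2, ADAR, TICAM1 and TBK1 were 2.26, 2.02, 1.44 and 0.72. Without replicate 2 the changes of the members ran from -0.70 for IFIH1 to 0.29 for TICAM1.

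**Figure D3:**
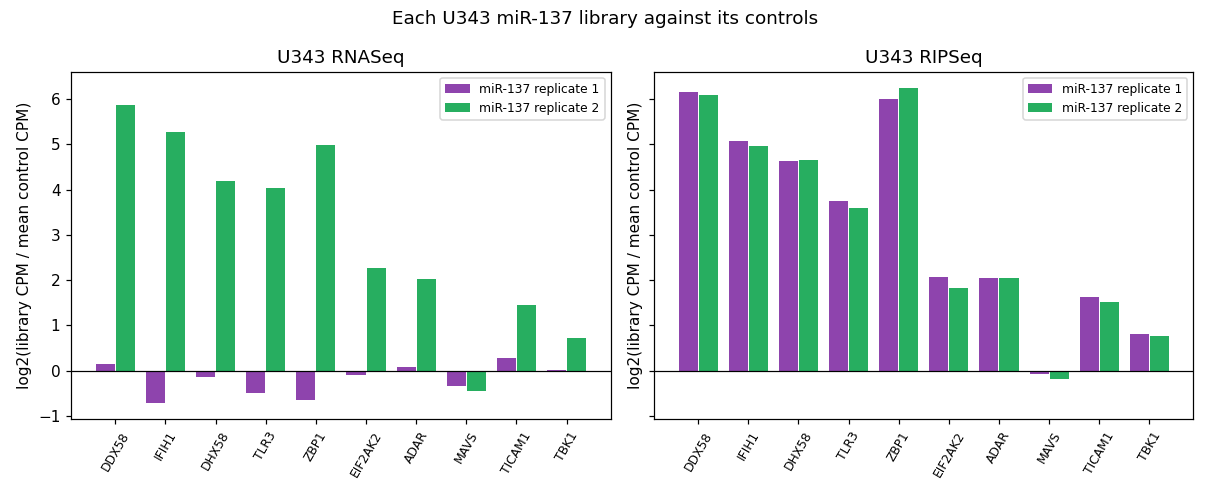
Log2 ratio of each U343 miR-137 library to the mean of its 2 controls (vertical axis), with purple bars for replicate 1 and green bars for replicate 2. In RNASeq the purple bars lie between -0.71 and 0.29 and the green bars reach 5.86, and in RIPSeq both replicates are alike.

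The rule in the study's methods sets every control library against every miR-137 library, 4 pairs in all, by Fisher's exact test. A gene counts when its odds ratio exceeds 2 and its adjusted p stays under 0.001 throughout, a rule made for lower genes and mirrored here for higher ones. In U251 RNASeq it called 6 of 9 members higher (DDX58, IFIH1, DHX58, TLR3, EIF2AK2 and TICAM1), where it called 6.14% of all genes higher and 2.21% lower. In U251 RIPSeq it called 5 of 9 higher, the same genes without TICAM1, against 3.47% of all genes higher and 1.49% lower. In U343 RIPSeq it called 8 of 10 higher, without MAVS and TBK1, against 4.83% higher and 3.40% lower. In U343 RNASeq it called none, against 1.51% of all genes higher and 2.88% lower, and 8 higher without miR-137 replicate 1, against 4.43% of all genes higher and 4.13% lower. No member was called lower by this rule in any experiment, as the 2-fold bound was not passed for MAVS in every pair.

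PABP-bound and total RNA were compared in the control libraries, to see how much of each sensor's RNA was recovered with PABP relative to other genes. In U343, 5 of 10 members were lower in PABP-bound RNA and none was higher, where 24.2% of all genes were lower and 24.4% higher. MAVS was the furthest, with 581 and 646 CPM in total and 131 and 134 CPM in PABP-bound RNA (log2 ratio -2.21, SE 0.09, edgeR adjusted p = 7.62e-06). Its level in U343 total RNA was thus several-fold above that in PABP-bound RNA in both replicates. DDX58 (-0.62, SE 0.11, edgeR adjusted p = 0.0036), ZBP1 (-0.95, SE 0.29, edgeR adjusted p = 0.0301), ADAR (-0.35, SE 0.07, edgeR adjusted p = 0.00542) and IFIH1 (-0.33, SE 0.10, edgeR adjusted p = 0.0298) were the others. The calls of IFIH1 and ZBP1 ended under DESeq2 (adjusted p = 0.094 and 0.108). That of IFIH1 also ended without any 1 of the 4 libraries (-0.29 to -0.36), and that of ZBP1 without RNASeq control 2 (-0.76) or RIPSeq control 2 (-0.68). In U251 none of 8 passed, where 7.87% of all genes were higher and 6.14% lower by edgeR and 4882 had an unadjusted p under 0.05. DESeq2 called TICAM1 higher and DDX58 lower, where it called 14.7% of all genes higher and 12.6% lower. Without RIPSeq control replicate 2 edgeR called 2 members higher and 5 lower, against 38.8% and 37.1% of all genes. Among the U251 values, TICAM1 was at 8.23 and 6.37 CPM in total and 39.4 and 12.1 CPM in PABP-bound RNA (log2 ratio 1.82, SE 0.57, edgeR adjusted p = 0.0747).

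**Figure D4:**
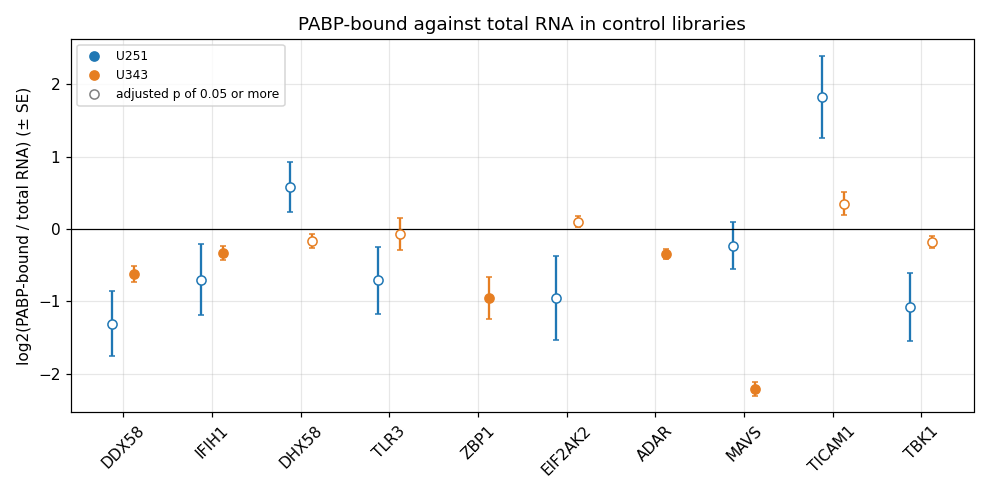
Log2 ratio of PABP-bound to total RNA in control libraries (vertical axis), with bars for 1 SE, blue for U251, orange for U343, and filled points for an edgeR adjusted p under 0.05. MAVS in U343 lies at -2.21, and the U251 bars are wider than those of U343.

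Whether miR-137 changed PABP-bound and total RNA unequally was tested as an interaction. In U251 none of 9 members passed, where 0.134% of all genes did by edgeR and 2688 had an unadjusted p under 0.05. In U343 none of 10 passed, where 0.00649% of all genes did by edgeR and 2712 had an unadjusted p under 0.05. The intervals were wide: for DDX58 the change in RIPSeq minus that in RNASeq was 1.13 in U251 (95% interval 0 to 2.26) and 1.23 in U343 (-3.01 to 5.47). For MAVS they were 0.46 (-0.16 to 1.08) and 0.25 (-0.07 to 0.58). DESeq2 gave 0 members in either line, where it called 5.37% of all genes in U251 and 3.99% in U343. Without U251 RIPSeq control replicate 2 edgeR gave 8 of 9 members in U251, where 58.0% of all genes passed, and without U343 RNASeq miR-137 replicate 2 it gave 9 of 10 in U343, where 19.8% of all genes passed.

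Control total RNA was compared between the lines, both of which had received the control mimic. In it 3 members were higher and 5 lower in U343 than in U251. Of all genes 44.9% were higher and 39.9% lower, so a difference between the lines was common to most genes and not particular to the members. Higher in U343 were MAVS (591 and 659 against 144 and 121 CPM, log2 ratio 2.24, SE 0.12, edgeR adjusted p = 2.81e-07), DHX58 (2.70, SE 0.16, edgeR adjusted p = 4.97e-07) and ZBP1 (3.87, SE 0.53, edgeR adjusted p = 0.00011). ZBP1 had 2 and 1 reads in the U251 controls and 56 and 59 in those of U343. It passed the filter through U343 only, so its call is no independent support. Lower were EIF2AK2 (-1.58), DDX58 (-1.51), TICAM1 (-0.82), IFIH1 (-0.65) and TBK1 (-0.57). TLR3 did not pass, at 0.37 with a 95% interval of -0.12 to 0.86. The cDNA of the lines was made by different procedures, and line and procedure cannot be told apart.

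Response to miR-137 was compared between the lines in the 9 members of both tables. In RNASeq MAVS passed (0.69 for U343 minus U251, SE 0.18, edgeR adjusted p = 0.0278), where 12.5% of all genes were higher by this test and 12.7% lower. In RIPSeq ZBP1 passed (3.82, SE 0.70, edgeR adjusted p = 0.0367), where 2.06% were higher and 1.22% lower. Neither call withstood leaving out single libraries: MAVS was 0.58, 0.71, 0.68 and 0.76 without U251 control 1, U251 miR-137 replicate 1, U343 control 1 and U343 control 2 (edgeR adjusted p = 0.0769, 0.0666, 0.106 and 0.0754). ZBP1 was 2.79 without U251 control 1 (edgeR adjusted p = 0.0797) and 3.53 to 4.16 without U251 miR-137 replicate 1 or 2 or any single U343 library (edgeR adjusted p = 0.13 to 0.232), and kept its call only without U251 control 2. For DDX58, IFIH1 and TLR3 no difference passed, with RIPSeq differences of 0.45 (95% interval -0.67 to 1.57), 0.82 (-0.47 to 2.11) and -0.91 (SE 0.46). DHX58 in RIPSeq was 1.00 higher in U343 (95% interval 0.37 to 1.62, edgeR adjusted p = 0.0895).

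Other genes of the pathway were taken from lists. Their counts stand beside 28.7% of all genes higher and 29.0% lower in U251 RNASeq, 0.944% and 0.263% in U251 RIPSeq, 8.31% and 11.7% in U343 RNASeq, and 28.5% and 27.8% in U343 RIPSeq. Among cofactors of the RIG-I-like receptors, 3 of 7 tested rose and 3 fell in U251 RNASeq (median log2 fold change -0.07), and 5 of 8 rose and 3 fell in U343 RIPSeq (median 0.39). DDX60, a helicase that aids RIG-I signalling, rose by 4.24 (SE 0.16) and 3.17 (SE 0.09) there, TRIM25, the ubiquitin ligase that activates RIG-I, by 1.32 (SE 0.16) and 2.26 (SE 0.09), and ZC3HAV1, an antiviral zinc finger protein, by 1.34 (SE 0.14) and 2.23 (SE 0.12). The RNA helicases DDX3X and DHX9 and the PKR activator PRKRA fell in both. In U251 RIPSeq 1 of 7 rose, DDX60, and in U343 RNASeq none of 8 passed, or 3 rose without miR-137 replicate 1, where 19.3% of all genes rose.

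The list of adaptors and kinases downstream of MAVS and TICAM1 also held the transcription factors IRF3 and IRF7, and TMEM173, an adaptor of DNA sensing. Of its genes, 8 of 13 rose in U251 RNASeq and 12 of 14 in U343 RIPSeq, where TRAF3 fell. Of all genes 28.7% and 28.5% were higher there, and the median log2 fold changes of the list were 0.55 and 0.71. IRF7, the interferon-inducible factor of type I interferon genes, went from 7.12 and 7.99 CPM to 559 and 559 CPM in U343 RIPSeq (log2 fold change 6.21, SE 0.12, edgeR adjusted p = 1.41e-07). In U251 it was low. RNASeq gave 0.575 and 0.428 CPM in controls and 1.80 and 2.31 CPM with miR-137 (log2 fold change 2.02, SE 0.40, edgeR adjusted p = 0.000716). With 9 and 7 control reads there against 20 and 26, IRF7 passed the filter only through the miR-137 libraries. That rise, counted among the 8, is therefore no independent support. In U251 RIPSeq IRF7 was at 2.49 and 0.931 CPM against 0.919 and 0.478 CPM (-1.28, SE 0.66, edgeR adjusted p = 0.368). IKBKE, the kinase related to TBK1, rose in U251 RNASeq (0.60, SE 0.20), U343 RNASeq (1.60, SE 0.14) and U343 RIPSeq (1.86, SE 0.10). In U343 RNASeq both miR-137 libraries carried this rise, with 26.5 and 28.5 CPM in controls and 74.4 and 92.5 CPM with miR-137, unlike the sensors. TRAF3, a ubiquitin ligase downstream of MAVS, fell there by 0.97 (SE 0.11), with 3 of 14 rising and 1 falling in all, or 10 and 1 without replicate 1 (19.3% and 20.3% of all genes). In U251 RIPSeq none of 13 passed by edgeR, against 8 higher and 1 lower without control 1 (32.8% and 35.3% of all genes) and 6 higher and 4 lower without control 2 (40.2% and 34.2%).

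Of the negative regulators, 4 of 10 were higher and 4 lower in U251 RNASeq, where 28.7% of all genes rose and 29.0% fell, and 6 of 11 were higher and 2 lower in U343 RIPSeq, where the shares were 28.5% and 27.8%. NLRC5 rose by 3.05 (SE 0.14) and 3.51 (SE 0.11), and TNFAIP3, the deubiquitinating enzyme A20, by 2.91 (SE 0.17) and 1.82 (SE 0.18). ITCH, a ubiquitin ligase that targets MAVS, fell by 0.68 (SE 0.13) in U251 RNASeq. Of these regulators 1 of 10 rose in U251 RIPSeq, NLRC5 (2.84, SE 0.29), where 0.944% of all genes rose. In U343 RNASeq 1 of 11 rose and 1 fell, where 8.31% of all genes rose and 11.7% fell. Of other double-stranded RNA binding proteins and the OAS branch, 4 of 10 rose and 1 fell in U251 RNASeq, and 5 rose and 1 fell in U343 RIPSeq. In U251 RIPSeq 4 of 10 rose and none fell, where 0.944% of all genes rose. In U343 RNASeq 1 of 10 rose and 1 fell. The risers in both U251 experiments were OAS1, OAS2, OAS3 and OASL, oligoadenylate synthetases or their relative. In U251 RNASeq OAS1 had 10 and 10 control reads and OAS2 had 2 and 5. Both passed the filter there only through the miR-137 libraries, so these rises are no independent support. Their control means in U251 RIPSeq were also low, at 0.393 and 0.547 CPM. OASL rose by 7.24 (SE 0.19) in U251 RNASeq, 8.44 (SE 0.33) in U251 RIPSeq and 9.69 (SE 0.19) in U343 RIPSeq. DICER1, the nuclease that makes mature microRNAs, fell in U343 by 1.10 (SE 0.09) in RNASeq, with 115 and 117 CPM in controls and 54.7 and 53.3 CPM with miR-137, and by 1.10 (SE 0.10) in RIPSeq. ADARB1, the other editing deaminase, rose in U343 RNASeq by 1.64 (SE 0.21).

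Of the other eIF2 alpha kinases and eIF2 targets, 2 of 6 rose and 1 fell in U251 RNASeq, and 1 of 7 rose and 2 fell in U343 RIPSeq, beside the same shares of all genes. None of 6 passed in U251 RIPSeq, and 1 of 7 rose in U343 RNASeq, where 8.31% of all genes rose. PPP1R15A, the phosphatase subunit that reverses eIF2 alpha phosphorylation, rose in U251 RNASeq (1.58, SE 0.16), U343 RNASeq (0.93, SE 0.20) and U343 RIPSeq (1.10, SE 0.09). EIF2AK1 fell in U251 RNASeq (-0.42, SE 0.13) and U343 RIPSeq (-0.54, SE 0.09), where EIF2AK2 rose. The endosomal receptors besides TLR3 were barely measured: of 4 genes with UNC93B1, the chaperone that carries such receptors to endosomes, 1 passed the filter in U251 RNASeq and 3 in U343 RIPSeq. UNC93B1 fell by 0.68 (SE 0.22) in the former and rose by 0.65 (SE 0.10) in the latter.

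A list of output genes held 11 interferon, chemokine and interferon-stimulated genes, and whether sensor signalling changed them was not tested. All that passed the filter rose in U251 RNASeq (7), U251 RIPSeq (9) and U343 RIPSeq (11), with median log2 fold changes of 6.47, 7.66 and 8.52, and none of 7 passed in U343 RNASeq, or 11 of 11 without miR-137 replicate 1. A gene that passes the filter only through its miR-137 libraries had to differ, so these counts are no independent support. IFNB1 had 4 reads in the U251 RIPSeq controls and 575 with miR-137, a ratio of 138 (Clopper-Pearson 95% interval 53.7 to 509), but 2 and 12 reads in U251 RNASeq. IL29, which encodes interferon lambda 1, had 0 control reads and 2306 miR-137 reads in U343 RIPSeq. This is 843-fold higher against a floor of 3 counts over the group, with a Clopper-Pearson 95% lower limit of 685. IFNB1 and IL29 thus had at most 4 reads in any control library and were present in both miR-137 libraries of each experiment other than U343 RNASeq, although at no more than 7 reads a library in U251 RNASeq. IL28A and IL28B, which encode other interferon lambdas, had 0 reads in every U251 RNASeq library and at most 3 in any U251 RIPSeq library.

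Promoter sequence was examined because the receptors moved together. The motif made of GAAA, any 2 bases and GAAA again, a form of the interferon-stimulated response element, was searched on both strands from 250 bases before to 50 after each RefSeq start site (GRCh38.p14). It was found in 3.57% of all 35116 promoter entries. Counted by gene, it was found in 3 of the 8 members with an entry. ADAR had more than 1 entry, none with the motif, so the shares differ in unit. DHX58 and ZBP1 had no entry. The sites are printed below in 30-base windows, with the motif in capitals, and positions are counted from the start site.

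IFIH1, chr2:162318686-162318715, minus strand: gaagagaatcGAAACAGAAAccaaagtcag

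IFIH1, chr2:162318818-162318847, plus strand: gacaccgcggGAAACAGAAAaggaaagcga

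TLR3, chr4:186069142-186069171, minus strand: cggcactctcGAAAGTGAAAgtaaagcttg

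EIF2AK2, chr2:37156967-37156996, minus strand: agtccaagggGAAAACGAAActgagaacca

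The first IFIH1 match lies 21 to 12 bases before the start on the strand of the gene, and the second lies on the opposite strand and overlaps a further match. In TLR3 the match is on the opposite strand and spans the start site, and in EIF2AK2 it spans the start site on the strand of the gene. The promoters of DDX58, ADAR, MAVS, TICAM1 and TBK1 do not hold these letters in this window. A match describes letters and is not evidence of a bound factor.

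Across the 16 libraries, centred within each experiment, the genes most alike to each member were ranked by Pearson's r of log2(CPM + 1) among 12528 genes. The libraries share their transfection groups and, within an experiment, their controls, so r is a description. Among the nearest to DDX58 were STAT2 (0.997) and IFI16 (0.996). The nearest were for IFIH1 TRIM38 (0.996), HERC5 (0.996) and TNFSF10 (0.995), for DHX58 NLRC5 (0.997), ISG15 (0.996) and ISG20 (0.995), and for TLR3 SAMD9L (0.997), IFIT1 (0.996) and SP100 (0.996). Among the nearest to EIF2AK2 were RAB8B (0.992) and GNB4 (0.990), and TBK1 was nearest to HBP1 (0.989), FNDC3A (0.987) and HIAT1 (0.985). TICAM1 lay nearest to MED25 (0.977), KAT2A (0.970) and BIN3 (0.966). MAVS had PGAM5 (0.969), VPS4A (0.960) and TH1L (0.948) as nearest genes, and its highest r with another member was -0.315, with ZBP1.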

How the data were processed

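Total RNA (RNASeq) and PABP-bound RNA (RIPSeq) of U251 and U343 cells were analysed in 16 libraries, 2 per group, grouped by the labels. RMAP was used by the authors for alignment to hg18. All RefSeq isoforms of a gene were merged into 1 super-transcript, and the deposited values are raw counts of reads on it. The treatment of multiply mapping reads is not given in the sources used here. RNA of both lines was depleted of rRNA and the cDNA was tagmented with Nextera reagents, but it was made with random hexamers and EpiScript in U251 and with the TotalScript kit in U343. A further U251 replicate named in the methods was not analysed here. One symbol listed on more than 1 line was kept at its first line, and the uniform strand column of the U251 tables was not used. No member overlapped another listed gene.

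The counts were fitted in R 4.3.3 with edgeR 4.0.16 (TMM, filterByExpr, quasi-likelihood test, Benjamini-Hochberg over all genes tested, 0.05), each experiment alone, with interaction terms between assays or lines. The study's Fisher rule, DESeq2 1.42.0, upper-quartile scaling, no filter or at least 50 reads on average, 1 model over all 8 libraries of a line, a replicate block and leaving out each library were also run, and the scripts were tested on simulated data. Counting intervals are Clopper-Pearson and cover counting error only. The members and lists were chosen with earlier results of these data known. Text names all members, CDK6, IFNB1 and IL29, from each list up to 3 genes with the largest changes past the threshold (at least 50 reads on average in the higher group, same direction in all 4 pairs), and the 3 genes most alike to each member that passed the filter in all 4 experiments, of which some are not reported here; IRF7 in U251, IFIT1 in U343 RNASeq, and DDX3X, DHX9, PRKRA and OAS3 were added after their values were seen.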

Additional observations from a re-analysis of the deposited data

Results flagged for a closer look

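Tests of the difference between the cell lines put 2 members on record. In RNASeq the miR-137 change of MAVS was 0.69 higher in U343 than in U251 on the log2 scale (SE 0.18, 95% interval 0.27 to 1.10, edgeR adjusted p = 0.0278). MAVS was lower in both miR-137 libraries than in both controls of either line, so the difference is one of size. In RIPSeq the change of ZBP1 was 3.82 higher in U343 (SE 0.70, 95% interval 2.17 to 5.46, edgeR adjusted p = 0.0367), from 11 control and 60 miR-137 reads in U251 and 57 and 3599 in U343. Without U251 control 1 the values were 0.58 for MAVS and 2.79 for ZBP1, and neither passed. The lines differ in how cDNA was made and the U251 RIPSeq controls differ from each other, and the part of either in these differences was not tested.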

How the results depend on the processing

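Among settings other than leaving out a library, 47 of 60 counts of members stayed within 1.5 times and 440 of 475 changes of single members kept their direction and their side of the threshold. Counts of members in this section show only how far the calls moved. They stand without the share of all genes, so none is a result about the members. The model over 8 libraries of a line gave 5 members in U251 RNASeq, 6 in U251 RIPSeq and 2 in U343 RNASeq. DESeq2 gave 5 in U251 RIPSeq, 2 in U343 RNASeq, 2 and 3 for PABP-bound against total RNA in U251 and U343, and 2 for the line difference in RIPSeq. Without a filter 1 member passed in U251 RIPSeq. No source used here says that libraries of one number belong together. The correlation of their deviations ran from -0.2 to 0.28, and 2 pairs cannot show whether they share a batch. The replicate block gave 6 members in U251 RIPSeq, 3 for PABP-bound against total RNA in either line and 0 for the line difference in RIPSeq. It moved no other count of members past 1.5 times. TICAM1 in U251 RIPSeq became -0.09 with upper-quartile scaling and -0.01 with at least 50 reads, the assay difference of ZBP1 in U251 -0.05 with upper-quartile scaling, and the RNASeq line difference of EIF2AK2 0.04 with DESeq2 and 0.02 without a filter and that of DDX58 -0.19 with the block. The cause was not tested.

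Leaving out 1 library gave 5 to 9 members in U251 RIPSeq, 0 to 10 in U343 RNASeq (0 to 8 by the study's rule), 0 to 7 and 3 to 4 for PABP-bound against total RNA in U251 and U343, 0 to 8 and 0 to 9 for the assay difference in U251 and U343, and 0 to 9 and 0 to 7 for the line difference in RNASeq and RIPSeq. The upper ends came from leaving out an RNASeq miR-137 library of U343 or a RIPSeq control of U251, apart from PABP-bound against total RNA in U343. Some ranges crossed 0. In U343 RNASeq IFIH1 ran from -0.70 to 5.26, DHX58 -0.14 to 4.18, TLR3 -0.48 to 4.02, ZBP1 -0.65 to 4.99 and EIF2AK2 -0.10 to 2.26. In U251 RIPSeq TICAM1 ran from -0.45 to 1.08. For PABP-bound against total RNA in U343 TLR3 ran from -0.41 to 0.20. For the assay difference ZBP1 ran from -0.45 to 1.19 and TBK1 -0.05 to 1.30 in U251, and IFIH1 -0.24 to 5.71, TLR3 -0.36 to 4.13 and EIF2AK2 -0.30 to 2.05 in U343. For the line difference in RNASeq EIF2AK2 ran from -1.64 to 0.73, TLR3 -4.45 to 0.06, TBK1 -0.48 to 0.23, DDX58 -4.41 to 1.30, IFIH1 -4.11 to 1.86 and ZBP1 -2.85 to 2.79. In RIPSeq TBK1 ran from -0.95 to 0.44, DDX58 -0.36 to 0.94 and IFIH1 -0.15 to 1.37. Counts of list genes were rerun with every setting after the data were seen. With 2 libraries a group, a lone remaining library is assumed to vary like the others, and ZBP1 in U251 RNASeq is limited by its 3 control and 10 miR-137 reads.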
